A study of Mus musculus with 32 samples.

Results

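Trimethylation of lysine 4 of histone H3 (H3K4me3) was mapped by chromatin immunoprecipitation and sequencing (ChIP-seq) in J1 mouse embryonic stem (ES) cells of 3 genotypes: cells in which Taf5l was knocked out (Taf5l-KO), cells in which Taf6l was knocked out (Taf6l-KO), and wild-type cells (Wild-type). These are 3 of the 32 samples of the series, 1 library per genotype, and the members described here are the peaks of their lists on chromosomes 1 to 19. There were 30701 such peaks in Taf5l-KO cells, 28093 in Taf6l-KO cells and 31027 in wild-type cells. All 3 cultures were J1 cells grown in the same serum medium with LIF, fixed with formaldehyde and precipitated with the same antibody. The header of each knockout list names an input from 1 knockout line, and the labels do not say how many clones were made, so each knockout may stand for 1 clone. With 1 library per genotype there was no replicate, so differences are given as sizes without a test. The 95% intervals given are exact (Clopper-Pearson). They cover counting error alone and treat peaks as independent, which neighbouring peaks are not.

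H3K4me3 is deposited by SET1 and MLL methyltransferases of the COMPASS family and marks the promoters of genes that are active or poised. Most promoters carry a short peak around the start site. A smaller set of genes carries the mark over several kilobases, and in many cell types such broad domains lie over genes of cell identity and genes with high and steady transcription. TAF5L and TAF6L are relatives of the TFIID subunits TAF5 and TAF6 and are structural subunits of SAGA-type coactivators. These complexes carry a GCN5 or PCAF acetyltransferase, which acetylates histone H3, including lysine 9 (H3K9ac), and a module that reads H3K4me3. The files give positions in mm9 and no gene names, and no annotation of mm9 was used here, so regions are named by position.

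The ChIP libraries held 8886529 unique tags in Taf5l-KO cells, 13041135 in Taf6l-KO cells and 15136528 in wild-type cells. The peak caller scaled each ChIP library down to its input, so the lists rest on 6245652 tags in Taf5l-KO cells, 5923469 in Taf6l-KO cells and 7771755 in wild-type cells. The knockout depths after scaling were 0.804 (Taf5l-KO) and 0.762 (Taf6l-KO) of the wild-type depth. This gap lies along the same direction as the results on width and loss given next, and its part in them was not tested. Duplicate tags made up 17.1% of the ChIP tags in Taf5l-KO cells, 28.0% in Taf6l-KO cells and 36.6% in wild-type cells. The median fold enrichment of the peaks over local background was 6.29 in Taf5l-KO cells, 6.55 in Taf6l-KO cells and 5.55 in wild-type cells. Wild-type peaks thus stood out least from background, and the part of this in the results was not tested either.

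The typical peak had nearly the same width in the 3 genotypes, and the lists parted among the wide peaks. The median width was 792 bp in Taf5l-KO cells, 792 bp in Taf6l-KO cells and 794 bp in wild-type cells. The upper quartile was 1463 bp in Taf5l-KO cells, 1413 bp in Taf6l-KO cells and 1502 bp in wild-type cells. The 99th percentile was 4081 bp in Taf5l-KO cells, 3767 bp in Taf6l-KO cells and 4654 bp in wild-type cells. The number of peaks was 0.989 of the wild-type number in Taf5l-KO cells and 0.905 in Taf6l-KO cells, while the sequence covered was 0.949 and 0.837 of the wild-type length (32.3 Mb, 28.5 Mb and 34.0 Mb in Taf5l-KO, Taf6l-KO and wild-type cells). The order of the peak numbers depends on the threshold: at a −log10 q of 5 or more the ratios were 1.15 (Taf5l-KO) and 1.05 (Taf6l-KO).

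Broad domains were fewer in both knockouts. Peaks of at least 4000 bp numbered 340 in Taf5l-KO cells, 211 in Taf6l-KO cells and 535 in wild-type cells, which is 0.636 and 0.394 of the wild-type number. They made up 1.11% (95% interval 0.993 to 1.23%) of the peaks in Taf5l-KO cells, 0.751% (0.653 to 0.859%) in Taf6l-KO cells and 1.72% (1.58 to 1.88%) in wild-type cells. Their summed length was 1.72 Mb in Taf5l-KO cells, 1.07 Mb in Taf6l-KO cells and 2.85 Mb in wild-type cells. At 6000 bp or more there were 49 peaks in Taf5l-KO cells, 30 in Taf6l-KO cells and 115 in wild-type cells. At 8000 bp or more there were 8, 11 and 29 peaks in Taf5l-KO, Taf6l-KO and wild-type cells, so the order of the knockouts turned round among these few.

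The deficit was graded by width. Peaks under 500 bp numbered 9975 in Taf5l-KO cells, 9126 in Taf6l-KO cells and 10042 in wild-type cells. Peaks of 1000 to 2000 bp numbered 8580 in Taf5l-KO cells, 8211 in Taf6l-KO cells and 8348 in wild-type cells. From 3000 bp upward both knockouts were below wild type by more than at any shorter width. Peaks of 3000 to 4000 bp numbered 768 in Taf5l-KO cells, 549 in Taf6l-KO cells and 919 in wild-type cells. Linking peaks less than 1000 bp apart did not bring the numbers together: domains of at least 4000 bp then numbered 466 in Taf5l-KO cells, 280 in Taf6l-KO cells and 749 in wild-type cells.

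**Figure D1:**
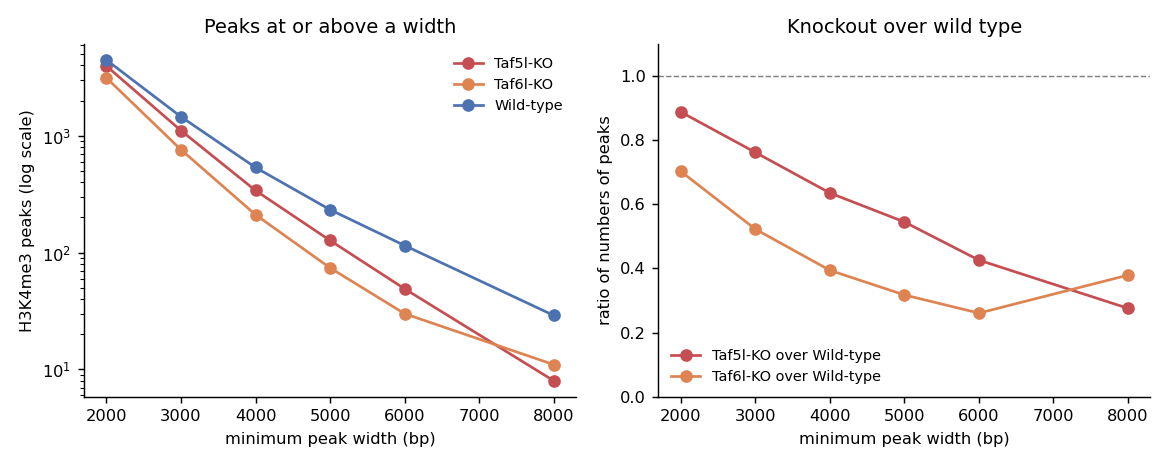
Number of H3K4me3 peaks at or above a minimum width (x axis, bp) in 1 library per genotype, on a log scale (left), and the ratio of each knockout to wild type (right). At 4000 bp the ratios were 0.636 (Taf5l-KO) and 0.394 (Taf6l-KO), and at 8000 bp the points rest on 8, 11 and 29 peaks in Taf5l-KO, Taf6l-KO and wild-type cells.

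The same genotypes give a comparison with RNA polymerase II, whose lists (antibody RNAP) were called with the same broad linking and, for the knockouts, at the same depth after scaling. RNAP peaks of at least 4000 bp numbered 438 in Taf5l-KO cells, 284 in Taf6l-KO cells and 350 in wild-type cells, ratios of 1.25 and 0.811. There the wild-type depth after scaling was 5174150 tags, below that of both knockouts. For both antibodies the ratio was lower in Taf6l-KO cells than in Taf5l-KO cells, and for RNAP the Taf5l-KO list held more wide peaks than the wild-type list. At wild-type peaks of at least 4000 bp with a single partner, the median width ratio was 0.979 (Taf5l-KO, 137 RNAP peaks) and 0.935 (Taf6l-KO, 122 RNAP peaks). For RNA polymerase II phosphorylated at serine 2 (RNAP-ser2) the peaks of at least 4000 bp numbered 727 in Taf5l-KO cells (5390622 tags after scaling), 328 in Taf6l-KO cells (3842867 tags) and 954 in wild-type cells (6295522 tags), ratios of 0.762 and 0.344. For the serine 5 form (RNAP-ser5) they numbered 684 in Taf5l-KO cells (6245652 tags), 29 in Taf6l-KO cells (1702363 tags) and 651 in wild-type cells (3871824 tags), ratios of 1.05 and 0.0445. With 1 library per genotype and antibody, depth and genotype cannot be told apart in these numbers.

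Peaks of 2 lists were matched where they shared at least 1 bp. Of the wild-type peaks, Taf5l-KO peaks overlapped 26132, or 84.2% (83.8 to 84.6%), and Taf6l-KO peaks overlapped 24910, or 80.3% (79.8 to 80.7%). Most matches were simple: 25471 of the overlapped peaks in Taf5l-KO cells (97.5%) and 24385 in Taf6l-KO cells (97.9%) had exactly 1 partner in either direction. Both comparisons use the same wild-type list, so any trait of that library enters both.

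Over these one-to-one matches the median width ratio, knockout over wild type, was 0.998 in Taf5l-KO cells (quartiles 0.847 and 1.17) and 0.935 in Taf6l-KO cells (quartiles 0.774 and 1.08). At least 1.5-fold narrower were 2652 peaks in Taf5l-KO cells, 10.4% of those matched, and at least 1.5-fold wider were 2488, or 9.77%. In Taf6l-KO cells 3595 were at least 1.5-fold narrower, 14.7% of those matched, and 1473 were at least 1.5-fold wider, or 6.04%. Thus the Taf5l-KO list was balanced between wider and narrower peaks, and the Taf6l-KO list leaned to narrower ones.

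Narrowing grew with the width of the wild-type peak. For wild-type peaks of 1000 to 2000 bp the median ratio was 0.973 in Taf5l-KO cells and 0.914 in Taf6l-KO cells. For peaks of 2000 to 3000 bp it was 0.939 and 0.866 in Taf5l-KO and Taf6l-KO cells, and for peaks of 3000 to 4000 bp 0.916 and 0.827. For peaks of at least 4000 bp it was 0.870 in Taf5l-KO cells (389 peaks) and 0.768 in Taf6l-KO cells (391 peaks). In that class the median width was 4122 bp in Taf5l-KO cells against 4674 bp at the same wild-type peaks, and 3642 bp in Taf6l-KO cells against 4705 bp at the same wild-type peaks. The knockout peak was the shorter at 83.5% of them in Taf5l-KO cells and at 94.4% in Taf6l-KO cells. At least 1.5-fold narrower were 67 (17.2%) in Taf5l-KO cells and 132 (33.8%) in Taf6l-KO cells, above the 10.4% and 14.7% of all matches, and none was 1.5-fold wider in either knockout.

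Classing peaks by their wild-type width picks those that happened to be called wide in that library, which lowers the ratio by itself. The same peaks were therefore also classed by the geometric mean of both widths, which treats the lists alike. At a geometric mean of at least 4000 bp the median ratio was 0.936 in Taf5l-KO cells (288 peaks) and 0.855 in Taf6l-KO cells (239 peaks). Of these, 21 (7.29%) in Taf5l-KO cells and 47 (19.7%) in Taf6l-KO cells were at least 1.5-fold narrower, and 3 and 2 were at least 1.5-fold wider. The share in Taf5l-KO cells was then below the 10.4% of all matches, and that in Taf6l-KO cells was still above 14.7%. Classed by the knockout width, a choice that leans the other way, the ratios were 0.986 (258 peaks) and 0.940 (171 peaks) in Taf5l-KO and Taf6l-KO cells, still below 1. Over all matches they were 0.998 and 0.935, so by this classing the wide peaks were not below the rest in Taf6l-KO cells. There the median ratio lay between 0.927 and 0.943 in every class from 1000 bp up, with no further fall at wide peaks. At a geometric mean of at least 6000 bp, where few peaks remain, the ratios were 0.955 (41 peaks) and 0.917 (27 peaks) in Taf5l-KO and Taf6l-KO cells. Without chromosome 11, which stood apart as described later, the wild-type class of at least 4000 bp gave 0.880 in Taf5l-KO cells and 0.772 in Taf6l-KO cells.

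The knockout lists set against each other show how far these 2 libraries of this antibody part when wild type is not among them. Their depths after scaling were close (6245652 tags in Taf5l-KO and 5923469 in Taf6l-KO cells), while the wild-type depth was 7771755 tags. This pair thus lacks most of the depth gap present in both comparisons with wild type. Over 25103 one-to-one matches the median width in Taf5l-KO cells was 1.07 times that in Taf6l-KO cells. At a geometric mean of at least 4000 bp the ratio was 1.06 (206 peaks), so the step between the knockouts was close to the same at wide peaks and over all matches. That differs from both comparisons with wild type, in which the wide peaks by that same classing lay below the rest. The difference between these steps was not tested, since each genotype is 1 library, and neither was the part of depth in it.

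**Figure D2:**
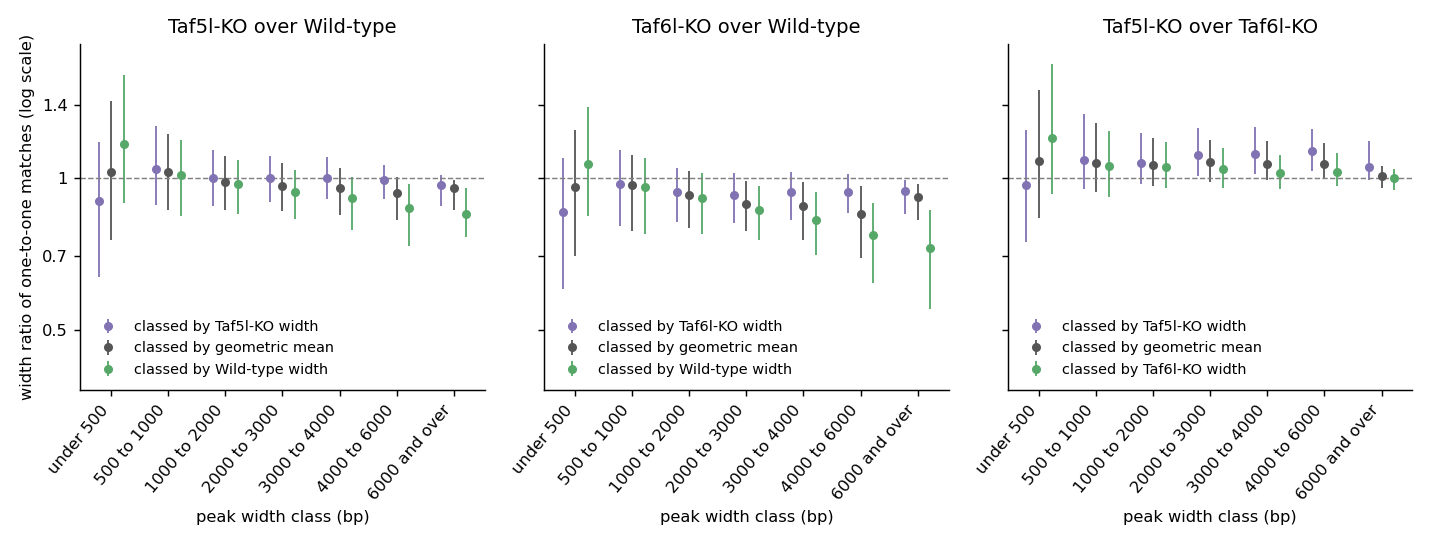
Median width ratio of one-to-one matching H3K4me3 peaks (points) with quartiles over peaks (bars), on a log scale, by peak width class (bp), for Taf5l-KO over Wild-type, Taf6l-KO over Wild-type and Taf5l-KO over Taf6l-KO. Purple points class each peak by the list on top of the ratio, grey points by the geometric mean and green points by the list below it. At 4000 to 6000 bp the grey points lie at 0.933, 0.851 and 1.07 in that order of panels.

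Broad domains of the wild-type list were mostly cut back at both ends in the knockouts. At one-to-one wild-type peaks of at least 4000 bp, both ends lay further in at 219 peaks (56.3%) in Taf5l-KO cells and at 274 (70.1%) in Taf6l-KO cells. Only 1 end lay further in at 35.7% and 28.4% in Taf5l-KO and Taf6l-KO cells. Over all one-to-one matches both ends lay further in at 26.6% in Taf5l-KO cells and 36.2% in Taf6l-KO cells. Classing by the wild-type width favours inward ends, and these shares were not computed for the other ways of classing. The left and right ends lay further in by medians of 173 and 226 bp in Taf5l-KO cells and 316 and 322 bp in Taf6l-KO cells. In the few domains of at least 6000 bp the right end had the larger median, 550.5 bp against 142.5 bp for the left end in Taf5l-KO cells (62 peaks) and 1093.5 bp against 239.5 bp in Taf6l-KO cells (66 peaks).

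In bases, Taf5l-KO peaks covered 78.1% of the sequence in wild-type domains of at least 4000 bp, and Taf6l-KO peaks covered 70.5%. Over wild-type peaks of any width they covered 80.3% (Taf5l-KO) and 74.5% (Taf6l-KO), and over those of 2000 to 3000 bp, the best covered class, 86.0% and 80.2%. The broad domains were thus covered little less than the whole list, in which short lost peaks count as uncovered, and less than peaks of middle width. Over wild-type domains of at least 6000 bp the covered parts were 75.3% (Taf5l-KO) and 66.5% (Taf6l-KO). In the other direction, wild-type peaks covered 91.3% of the Taf5l-KO domains of at least 4000 bp and 92.2% of the Taf6l-KO domains. Knockout peaks of 2000 to 3000 bp were covered about as far, at 91.5% (Taf5l-KO) and 94.6% (Taf6l-KO). Over the whole knockout lists the covered parts were 84.7% and 88.9%. Like their peaks of middle width, the broad domains of both knockouts therefore lay nearly within wild-type peaks. The knockouts left 0.623 Mb (Taf5l-KO) and 0.842 Mb (Taf6l-KO) of the 2.85 Mb of wild-type broad domains uncovered.

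Some domains were called in pieces. A wild-type peak was split, meaning that at least 2 knockout peaks overlapped it, at 316 places in Taf5l-KO cells, 1.21% of the overlapped peaks, and at 315 in Taf6l-KO cells, 1.26%. The reverse, a knockout peak that joined at least 2 wild-type peaks, was seen for 179 Taf5l-KO peaks, taking in 362 wild-type peaks or 1.39%, and for 106 Taf6l-KO peaks, taking in 214 or 0.859%. There were 1.77 splits for each join in Taf5l-KO cells and 2.97 in Taf6l-KO cells. A split wild-type peak had a median width of 3604.5 bp for Taf5l-KO and 3650 bp for Taf6l-KO. Its widest piece kept a median of 52.2% and 45.3% of that width in Taf5l-KO and Taf6l-KO cells. Nearly all split peaks fell into 2 pieces (295 of 316 in Taf5l-KO cells and 304 of 315 in Taf6l-KO cells), and the largest number of pieces was 5 in Taf5l-KO cells and 3 in Taf6l-KO cells.

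Splitting was far more frequent at wide peaks. Of wild-type peaks of 1000 to 2000 bp, 0.616% were split in Taf5l-KO cells and 0.476% in Taf6l-KO cells. Of those of at least 4000 bp, 136 of 534 were split in Taf5l-KO cells (25.5%, 21.8 to 29.4%) and 135 of 532 in Taf6l-KO cells (25.4%, 21.7 to 29.3%). Of those of at least 6000 bp, 45.2% were split in Taf5l-KO cells and 42.6% in Taf6l-KO cells. A wide peak offers more room for a break in any second library, so the reverse share is its measure: wild-type peaks split 15.3% (11.6 to 19.6%) of the Taf5l-KO domains of at least 4000 bp and 12.4% (8.25 to 17.6%) of the Taf6l-KO domains. Between the knockouts, Taf6l-KO peaks split 21.8% of the Taf5l-KO domains of that width, and Taf5l-KO peaks split 9.05% of the Taf6l-KO domains. In each of these 3 pairs the list with fewer broad domains broke those of the other list more often. In the count over peaks of any width the splits were not more frequent than the joins for wild-type peaks in Taf5l-KO cells (1.21% against 1.39%).

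The 5 widest wild-type domains show the range of outcomes. The widest, at chr10:80597151-80611793 (14643 bp), was called as 3 peaks summing to 8316 bp in Taf5l-KO cells and 2 peaks summing to 8414 bp in Taf6l-KO cells, against 1 peak in wild-type cells. Its largest gap was 2261 bp in Taf5l-KO cells and 2285 bp in Taf6l-KO cells, and RNAP peaks overlapped it in all 3 genotypes. The left part of this domain was kept in both knockouts, and the right end was not called in either.

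The next, at chr8:28369722-28383978 (14257 bp), was called as 5 peaks summing to 10179 bp in Taf5l-KO cells and as 2 peaks summing to 4131 bp in Taf6l-KO cells. The domain at chr9:114461537-114474443 (12907 bp) kept a main peak of 9692 bp in Taf5l-KO cells and 1 peak of 9965 bp in Taf6l-KO cells. The pieces on chromosome 8 spread over most of the wild-type domain in Taf5l-KO cells and over its left side in Taf6l-KO cells, and the chromosome 9 domain was trimmed to a similar length in both. H3K9ac peaks overlapped both of these domains in wild-type cells and in neither knockout.

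The domain at chr12:87807327-87819482 (12156 bp) was called as 2 peaks in each knockout and kept most of its length. These peaks summed to 13910 bp in Taf5l-KO cells and 10931 bp in Taf6l-KO cells, the latter 0.899 of the wild-type width. In Taf5l-KO cells a single peak of 13772 bp ran from it into the neighbouring wild-type peak, so part of that sum lay outside the domain. The domain at chr6:39359390-39371412 (12023 bp) was called as 5 peaks summing to 6034 bp in Taf5l-KO cells and 2 peaks summing to 5466 bp in Taf6l-KO cells. This domain overlapped peaks of Oct4, a pluripotency transcription factor, and of H3K9ac in wild-type cells, and of neither in the knockouts.

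**Figure D3:**
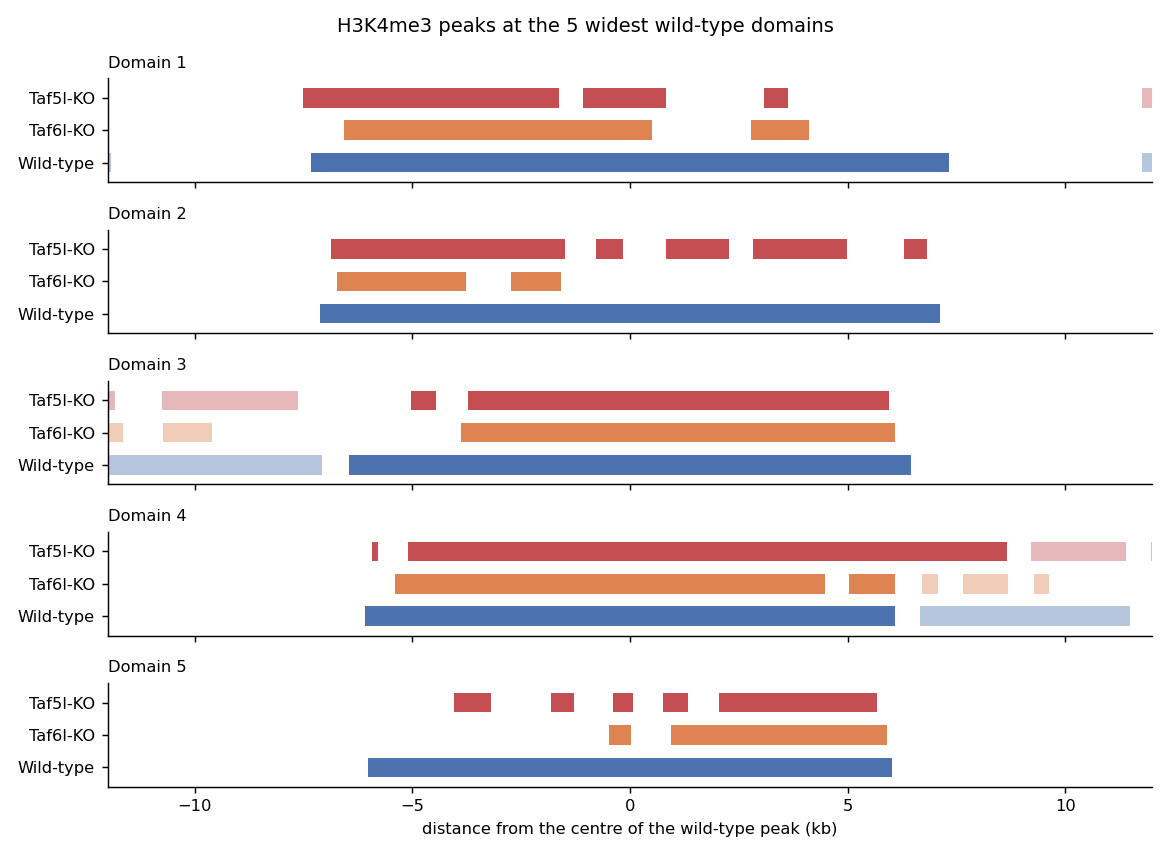
H3K4me3 peaks of Taf5l-KO, Taf6l-KO and wild-type cells at the 5 widest wild-type domains, from the widest (top) down, by distance from the centre of the wild-type peak (kb). Bars are called peaks to scale, and paler bars do not overlap the wild-type peak in the centre. Domains 1, 2 and 5 were called as 3, 5 and 5 peaks in Taf5l-KO cells and as 2 peaks each in Taf6l-KO cells. Domain 4 was called as 2 peaks in each knockout, and its main Taf5l-KO peak reached past the wild-type peak.

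Among wide domains split in 1 knockout and matched one-to-one in the other, the domain at chr9:59503179-59513317 (10139 bp) fell into 2 peaks summing to 6312 bp in Taf5l-KO cells and was 1 peak of 5060 bp in Taf6l-KO cells. The domain at chr17:29168510-29177907 (9398 bp) was 1 peak of 8936 bp in Taf5l-KO cells and 2 peaks summing to 5835 bp in Taf6l-KO cells, with 2633 bp between them. In either region the knockouts differed in the length covered as well as in the number of pieces. TAF6L with a Flag-Biotin tag had been pulled down with streptavidin from 2 cell lines, and a peak of line 1 overlapped the first of these regions, as did wild-type peaks of H3K9ac, Oct4 and Myc.

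Peaks that joined the most wild-type peaks ran the other way. At chr1:134909081-134922832 Taf5l-KO cells had 1 peak of 13752 bp, Taf6l-KO cells had 3 peaks summing to 9519 bp and wild-type cells had 3 peaks summing to 12561 bp. At chr5:109981613-109988464 Taf5l-KO cells had 1 peak of 6852 bp, Taf6l-KO cells had 2 peaks summing to 6156 bp and wild-type cells had 3 peaks summing to 5191 bp. The second region carried Oct4 peaks in every genotype and an RNAP peak in none, while RNAP-ser2 peaks overlapped it in Taf6l-KO and wild-type cells. At chr6:145019951-145025162 Taf6l-KO cells had 1 peak of 5212 bp, against 1 peak of 1853 bp in Taf5l-KO cells and 3 peaks summing to 3753 bp in wild-type cells, so there the knockouts lay on either side of wild type.

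A few single peaks were much wider or much narrower in both knockouts. At chr2:166262146-166263149 the peak was 4233 bp in Taf5l-KO cells, 3051 bp in Taf6l-KO cells and 1004 bp in wild-type cells. It was weak in wild-type cells, with a −log10 q of 2.61. RNAP peaks overlapped this wild-type peak in both knockouts and not in wild-type cells. At chr2:25117560-25119844 the peak was 4697 bp in Taf5l-KO cells, 4857 bp in Taf6l-KO cells and 2285 bp in wild-type cells. Both regions ran against the lean to narrower peaks in Taf6l-KO cells, a lean that the Taf5l-KO matches as a whole did not have. The second had width ratios of 2.06 in Taf5l-KO cells and 2.13 in Taf6l-KO cells, and its wild-type peak had a −log10 q of 16.2.

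At the other extreme, the wild-type peak at chr9:21028262-21030834 (2573 bp) was overlapped by a peak of 267 bp in Taf5l-KO cells and 323 bp in Taf6l-KO cells. These calls did not overlap each other, lying at chr9:21029580-21029846 in Taf5l-KO cells and chr9:21028735-21029057 in Taf6l-KO cells. The wild-type peak, with a −log10 q of 3.74, overlapped a wild-type H3K9ac peak, RNAP peaks in all 3 genotypes and a TAF6L peak (line 2). The wild-type peak at chr2:75446732-75448402 (1671 bp) was overlapped by a peak of 157 bp in Taf5l-KO cells and 184 bp in Taf6l-KO cells. There too the knockout calls lay apart, at chr2:75446659-75446815 in Taf5l-KO cells and chr2:75447491-75447674 in Taf6l-KO cells. No RNAP peak overlapped the wild-type peak, and an RNAP-ser5 peak did in wild-type cells only. This H3K4me3 peak was weak in wild-type cells, with a −log10 q of 2.12.

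Loss was a matter of weak and short peaks. Wild-type peaks with no knockout peak on them, called lost here, numbered 4895 in Taf5l-KO cells, 15.8% of the wild-type list, and 6117 in Taf6l-KO cells, 19.7%. Their median width was 316 bp in Taf5l-KO cells and 336 bp in Taf6l-KO cells, against 794 bp over all wild-type peaks. Under 500 bp wide were 73.4% (Taf5l-KO) and 70.7% (Taf6l-KO) of the lost peaks, against 32.4% of all wild-type peaks. Only 56 (1.14%) of the peaks lost in Taf5l-KO cells and 73 (1.19%) of those lost in Taf6l-KO cells had a −log10 q of at least 5, against 53.4% of all wild-type peaks. Of wild-type peaks of at least 4000 bp, 1 of 535 was lost in Taf5l-KO cells and 3 of 535 in Taf6l-KO cells. The shortage of broad domains was therefore made of shorter and broken domains, with next to none lost whole.

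The share overlapped was higher the stronger the wild-type peak. Of wild-type peaks of −log10 q under 2, Taf5l-KO peaks overlapped 42.5% (41.1 to 43.9%) and Taf6l-KO peaks 31.8% (30.5 to 33.1%). Of those of 3 to 5, they overlapped 90.1% (Taf5l-KO) and 85.5% (Taf6l-KO), and of those of 5 to 10, 99.1% and 98.8%. Of the 8129 wild-type peaks of 10 to 20, all were overlapped in Taf5l-KO cells and all but 1 in Taf6l-KO cells, and all 2204 stronger ones were overlapped in both. By width, 64.2% of wild-type peaks under 500 bp were overlapped in Taf5l-KO cells and 56.9% in Taf6l-KO cells, and from 2000 bp to 3000 bp 99.2% and 98.5%.

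**Figure D4:**
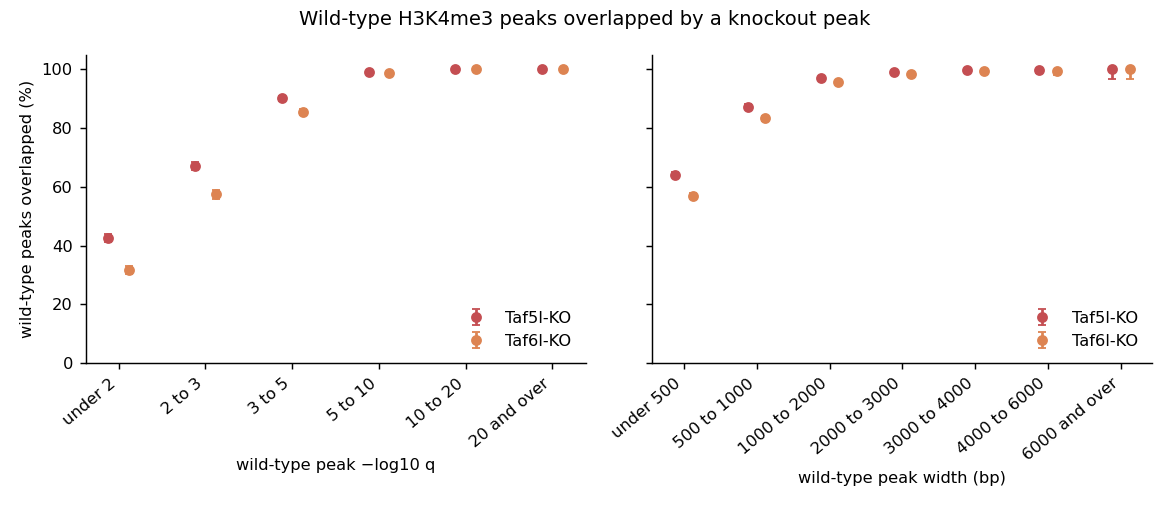
Share of wild-type H3K4me3 peaks (%) overlapped by at least 1 bp of a Taf5l-KO or Taf6l-KO peak, by the strength of the wild-type peak (−log10 q as deposited, left) and by its width (bp, right). Bars are exact 95% intervals for counting error. The shares were 42.5% (Taf5l-KO) and 31.8% (Taf6l-KO) below a −log10 q of 2 and at least 98.8% from 5 upward.

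Among the strongest lost peaks, those overlapped in neither knockout were mostly short. The first by fold enrichment, the ratio over local background that the authors' peak caller gave, was at chr14:118910780-118910940, 161 bp wide, with a fold enrichment of 6.93 in wild-type cells. The next, at chr1:33678212-33679377, was wider, at 1166 bp, with a fold enrichment of 6.85, and no peak of H3K9ac, RNAP or Oct4 overlapped it in any genotype. The one at chr14:61797201-61797929 (729 bp, fold enrichment 6.80) overlapped an H3K9ac peak in wild-type cells only. The strongest lost in Taf6l-KO cells alone, at chr6:136765193-136765527, was 335 bp wide in wild-type cells at a fold enrichment of 8.50 and was matched by a Taf5l-KO peak of 296 bp.

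Knockout peaks outside the wild-type list, called gained here, numbered 4411 in Taf5l-KO cells, 14.4% of that list, and 2965 in Taf6l-KO cells, 10.6%. They were shorter than the lost peaks, with a median width of 262 bp in Taf5l-KO cells and 249 bp in Taf6l-KO cells, and 83.1% and 84.9% were under 500 bp. Of the gained peaks, 326 (7.39%) in Taf5l-KO cells and 110 (3.71%) in Taf6l-KO cells had a −log10 q of at least 5, against 61.9% and 61.7% of the whole lists. They summed to 1.45 Mb in Taf5l-KO cells and 0.950 Mb in Taf6l-KO cells, below the 2.02 Mb and 2.71 Mb of the lost peaks. None of the Taf5l-KO and 1 of the Taf6l-KO gained peaks was at least 4000 bp wide. Within 10000 bp of a wild-type peak lay 40.2% of those gained in Taf5l-KO cells and 36.2% of those gained in Taf6l-KO cells, and lost peaks lay that close to a knockout peak at 56.1% and 51.7%.

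Among gained peaks that overlapped each other in the knockouts, the strongest after one at chr18:37778185-37779251 (1067 bp in Taf5l-KO and 1276 bp in Taf6l-KO cells) was at chr13:98124764-98125508. It was 745 bp wide in Taf5l-KO cells and 1038 bp in Taf6l-KO cells, with no wild-type peak. RNAP peaks overlapped it in both knockouts and not in wild-type cells. The next ones, at chr8:48419757-48420257 (501 and 805 bp in Taf5l-KO and Taf6l-KO cells), chr3:31948632-31949610 (979 and 376 bp) and chr2:180976387-180976716 (330 and 560 bp), overlapped no peak of the other antibodies. The strongest peaks found in 1 knockout list alone were shorter, 136 to 255 bp in Taf5l-KO cells and 171 to 223 bp in Taf6l-KO cells for the first 3 of each.

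RNA polymerase II peaks lay at kept H3K4me3 peaks more often than at lost or gained ones. RNAP peaks of wild-type cells overlapped 47.9% of all wild-type H3K4me3 peaks, 14.5% (13.5 to 15.5%) of those lost in Taf5l-KO cells and 12.9% (12.1 to 13.8%) of those lost in Taf6l-KO cells. Within peaks under 500 bp, which sets width aside in part, RNAP overlapped 11.4% of the lost against 31.7% of the kept peaks for Taf5l-KO. For Taf6l-KO it overlapped 9.98% (9.11 to 10.9%) of the lost against 35.5% (34.2 to 36.7%) of the kept peaks. On the side of the gained peaks, RNAP peaks of Taf5l-KO cells overlapped 7.28% of those gained in Taf5l-KO cells, and RNAP peaks of Taf6l-KO cells overlapped 14.8% of those gained in Taf6l-KO cells. The lists as a whole stood at 44.4% in Taf5l-KO cells and 58.2% in Taf6l-KO cells. Lost and gained peaks were also the weaker ones, and the part of strength in these shares was not tested.

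Broad domains overlapped the other marks more often than the list as a whole, though a wide peak also has more room for an overlap. Of wild-type H3K4me3 peaks of at least 4000 bp, wild-type RNAP peaks overlapped 93.1% and wild-type H3K9ac peaks 62.8%, against 47.9% and 12.4% of all wild-type peaks. H3K9ac peaks of the knockouts overlapped 3.55% (Taf5l-KO) and 21.3% (Taf6l-KO) of the same broad domains, against 0.345% and 2.74% of all wild-type peaks. RNAP peaks of the knockouts overlapped 95.9% (Taf5l-KO) and 97.2% (Taf6l-KO) of these domains, against 44.5% and 53.2% of all wild-type peaks. Nearly all broad domains thus held an RNAP peak in every genotype, while most held no H3K9ac peak in the knockouts. The knockout H3K9ac lists are themselves short, with 110 peaks in Taf5l-KO cells and 880 in Taf6l-KO cells against 4024 in wild-type cells. TAF6L peaks overlapped 65 of the broad domains (12.1%) for line 1 and 23 (4.30%) for line 2. Over all wild-type peaks these shares were 2.38% (line 1) and 0.835% (line 2).

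The median narrowing of broad domains differed little with H3K9ac and with TAF6L of line 1, and more with some other marks. At wild-type peaks of at least 4000 bp with a wild-type H3K9ac peak the median width ratio was 0.877 in Taf5l-KO cells (261 peaks) and 0.772 in Taf6l-KO cells (265 peaks). At those without H3K9ac it was 0.845 in Taf5l-KO cells (128 peaks) and 0.750 in Taf6l-KO cells (126 peaks). With a TAF6L peak of line 1 it was 0.883 in Taf5l-KO cells (48 peaks) and 0.799 in Taf6l-KO cells (47 peaks), and without one 0.866 (341 peaks) and 0.759 (344 peaks) in Taf5l-KO and Taf6l-KO cells. With a TAF6L peak of line 2 it was 0.943 in Taf5l-KO cells (12 peaks) and 0.885 in Taf6l-KO cells (13 peaks), against 0.867 and 0.766 without one, so these few domains were narrowed less. With RNAP it was 0.871 in Taf5l-KO cells and 0.772 in Taf6l-KO cells, against 0.825 (21 peaks) and 0.689 (20 peaks) without it. The quartiles over peaks overlap in each of these pairs, and the steps were not tested.

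The width ratio at Oct4-bound peaks differed from that of other peaks in a direction that changed with width. These ratios rest on 14 to 86 Oct4-bound peaks a class, and their differences were not tested. Under 500 bp the median ratio with a wild-type Oct4 peak was 1.44 in Taf5l-KO cells (14 peaks) and 1.36 in Taf6l-KO cells (18 peaks), against 1.17 and 1.07 without Oct4. At wild-type H3K4me3 peaks of 500 to 1000 bp with a wild-type Oct4 peak the median ratio was 0.879 in Taf5l-KO cells (34 peaks) and 0.662 in Taf6l-KO cells (35 peaks). Without Oct4 it was 1.02 in Taf5l-KO cells (7031 peaks) and 0.963 in Taf6l-KO cells (6734 peaks). At 1000 to 2000 bp the ratio with Oct4 was 0.885 in Taf5l-KO cells (86 peaks) and 0.836 in Taf6l-KO cells (84 peaks), against 0.973 and 0.915 without Oct4. From 2000 to 3000 bp the ratios were 0.961 and 0.880 with Oct4 and 0.938 and 0.865 without it in Taf5l-KO and Taf6l-KO cells. From 3000 to 4000 bp they were 0.868 (30 peaks) and 0.825 (31 peaks) with Oct4 in Taf5l-KO and Taf6l-KO cells, against 0.916 and 0.827 without it. At 4000 bp and above they were 0.842 (24 peaks) and 0.850 (23 peaks) with Oct4 in Taf5l-KO and Taf6l-KO cells, against 0.875 and 0.759 without it. Oct4-bound peaks thus had the lower ratio from 500 to 2000 bp in both knockouts, and the higher one under 500 bp and at 2000 to 3000 bp in both. At 3000 to 4000 bp their ratio was lower in Taf5l-KO cells and nearly level in Taf6l-KO cells. At broad domains it was lower in Taf5l-KO cells and higher in Taf6l-KO cells. Peaks without RNAP had the lower ratio at 1000 to 2000 bp, at 0.950 in Taf5l-KO cells and 0.863 in Taf6l-KO cells, against 0.984 and 0.940 with RNAP. Under 500 bp they had the higher one, at 1.22 in Taf5l-KO cells and 1.08 in Taf6l-KO cells, against 1.11 and 1.05 with RNAP. How far the Oct4-bound peaks lack RNAP was not tested.

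Chromosome 11 stood apart from the other 18 chromosomes in both knockouts. Lost peaks made up 21.8% of its wild-type peaks in Taf5l-KO cells and 27.2% in Taf6l-KO cells, against 12.1 to 18.0% and 13.9 to 21.8% on the others. Its number of peaks was 0.891 of wild type in Taf5l-KO cells and 0.804 in Taf6l-KO cells, against 0.960 to 1.04 and 0.876 to 0.972 on the others. Its median width ratio was 0.938 in Taf5l-KO cells and 0.873 in Taf6l-KO cells, below the 0.975 and 0.908 of the lowest other chromosome. Gained peaks were scarcest there in both knockouts, at 10.9% of the Taf5l-KO and 7.93% of the Taf6l-KO peaks on the chromosome.

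Chromosome 11 held 6.87% of the H3K4me3 peaks in Taf5l-KO cells, 6.78% in Taf6l-KO cells and 7.63% in wild-type cells. For RNAP both knockouts were above wild type, with 7.62% in Taf5l-KO cells, 7.46% in Taf6l-KO cells and 6.56% in wild-type cells. For RNAP-ser2 both were below it, with 7.37% in Taf5l-KO cells, 7.41% in Taf6l-KO cells and 7.67% in wild-type cells. For RNAP-ser5 they lay on either side of it, with 7.87% in Taf5l-KO cells, 5.64% in Taf6l-KO cells and 7.15% in wild-type cells. Both knockouts were below wild type for Oct4 (5.95% in Taf5l-KO and 7.07% in Taf6l-KO against 7.27%). So they were for Myc (12.5% and 9.09% against 13.0%), where the knockout shares rest on 4 and 2 peaks. For H3K9ac they lay on either side (11.8% and 10.6% against 10.8%). The antibodies thus had no order shared by all on this chromosome. The median pileup of its H3K4me3 peaks, the authors' signal height, was 1.02 of the list's median in Taf5l-KO cells, 1.04 in Taf6l-KO cells and 0.926 in wild-type cells. The part of these values in the loss on chromosome 11 was not tested, and the copy number of the chromosome in these cells was not analysed here. Without chromosome 11 the numbers of broad domains were 0.657 (Taf5l-KO) and 0.418 (Taf6l-KO) of the wild-type number, so the shortage did not rest on it.

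**Figure D5:**
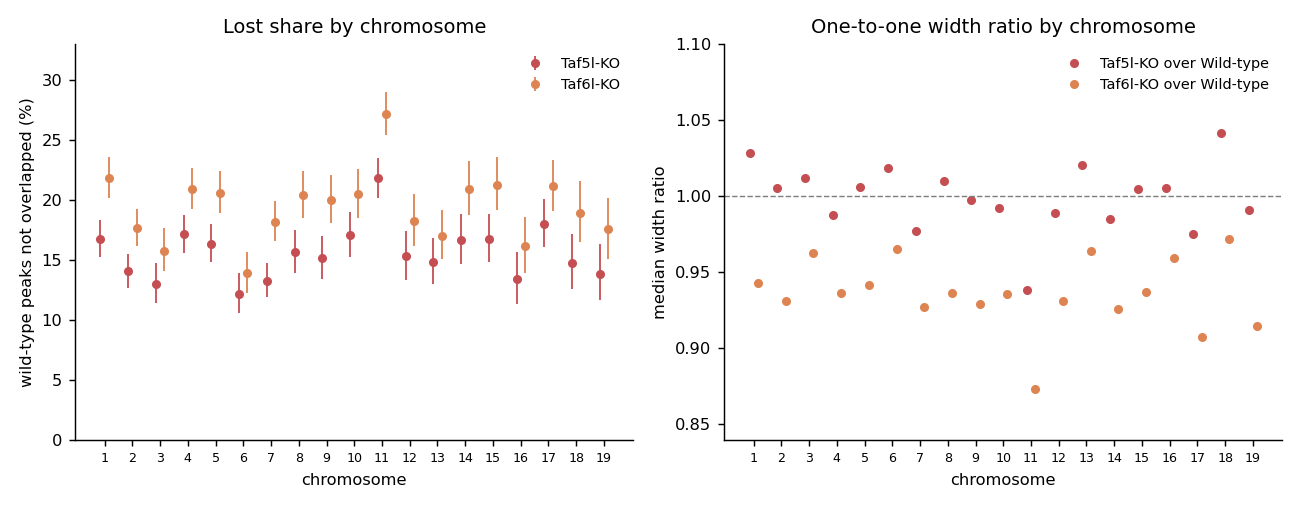
Share of wild-type H3K4me3 peaks lost (%, left, with exact 95% intervals for counting error) and median width ratio of one-to-one matches (right) on chromosomes 1 to 19, in Taf5l-KO and Taf6l-KO cells against the same wild-type list. Chromosome 11 has the highest lost share (21.8% and 27.2%) and the lowest width ratio (0.938 and 0.873) in Taf5l-KO and Taf6l-KO cells.

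The knockout lists were about as close to each other as to the wild-type list. Taf5l-KO peaks overlapped 91.4% (91.1 to 91.8%) of the Taf6l-KO peaks, and wild-type peaks overlapped 89.4% (89.1 to 89.8%) of them. Taf6l-KO peaks overlapped 83.2% (82.7 to 83.6%) of the Taf5l-KO peaks, and wild-type peaks overlapped 85.6% (85.2 to 86.0%) of them. The widest 500 peaks of each list can be compared without regard to the shorter width of the wide peaks in the knockouts. Of the widest 500 wild-type peaks, 308 (61.6%) overlapped one of the widest 500 in Taf5l-KO cells and 278 (55.6%) one of the widest 500 in Taf6l-KO cells, and 327 (65.4%) of the widest 500 in Taf6l-KO cells overlapped one of the widest 500 in Taf5l-KO cells. The shortest of these 500 was 3679 bp in Taf5l-KO cells, 3311 bp in Taf6l-KO cells and 4072 bp in wild-type cells. Of the widest 100 wild-type peaks, 47 overlapped one of the widest 100 in Taf5l-KO cells and 40 one of the widest 100 in Taf6l-KO cells, and 62 of the widest 100 in Taf6l-KO cells overlapped one of the widest 100 in Taf5l-KO cells. The knockouts shared more of their widest domains with each other than with wild type at either number.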

How the data were processed

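The 3 H3K4me3 libraries were taken from their sample labels, with 1 library per genotype. The submitters' processing notes name Bowtie2 2.3.2, deepTools 2.5.3 and the build mm9. Each library had its own peak list, from MACS2 2.1.1.20160309 with an input library, broad linking, q cutoffs of 0.05 and 0.1, a tag size of 50 bp and 1 tag kept per position, and the larger library was scaled to the smaller, per the file headers. Per the file headers, each peak carries a pileup signal, a fold enrichment (a ratio over local background), −log10 p and −log10 q, which are the authors' values for the peak. They served for ranking, limits and description. Between lists, the median fold enrichment and the numbers and shares of peaks at a −log10 q limit were compared. The pileup on chromosome 11 was taken relative to the median of its own list. Their levels were not otherwise compared between lists. No table column was left unused for want of a sample.

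Peaks on chromosomes 1 to 19 were matched where at least 1 bp overlapped (Python 3.11.15, NumPy 2.4.6, pandas 2.3.3, SciPy 1.17.1), and 1586 Taf5l-KO, 1541 Taf6l-KO and 1533 wild-type peaks elsewhere were set aside. A peak 1.5-fold wider or narrower and a width of 4000 bp were the limits used. Matching was tested on simulated lists. Other antibodies (20 further lists) were used mainly by overlap. Numbers of peaks were also taken for H3K9ac and the polymerase lists, and widths for the polymerase lists. Shares of peaks on chromosome 11 were taken for all but tagged TAF6L. Tagged TAF6L was used by line, and the TAF5L and BirA lists were not used here.

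Named regions follow a rule: the 5 widest wild-type peaks, the 3 widened and 3 narrowed most in both knockouts, the widest split ones, the peaks joining most, and the lost and gained peaks of highest fold enrichment. The text gives part of them. Members, lists and limits were chosen with earlier results of these data known. Gene lists had been drawn up, but the gene table at hand is of another build, so no peak was given a gene, and the targeted genes themselves were not analysed here. Alternatives were a stricter threshold, 50% overlap, merging below 1000 bp, equal list length (28093 peaks) and, chosen after seeing the data, removal of chromosome 11, other width limits and other width classes.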

Additional observations from a re-analysis of the deposited data

How the results depend on the processing

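The smaller number and width of broad domains kept their direction in both knockouts under every alternative run. For the number, 2 alternatives could hardly change it, since broad peaks are strong. Equal list length removed no peak of at least 4000 bp, and the stricter threshold left 337 in Taf5l-KO, 208 in Taf6l-KO and 512 in wild-type cells. No alternative made the depths equal. The values moved as follows, given for Taf5l-KO and then Taf6l-KO cells. With only peaks of −log10 q of 5 or more, the peak number ratio turned round to 1.15 and 1.05, the kept share of wild-type peaks was 95.0% and 93.3%, the split share 0.216% and 0.343%, the joined share 0.254% and 0.168%, and the width ratio at broad peaks 0.827 and 0.706. The median width ratio was then 0.993 and the share outside the wild-type list 17.2% in Taf5l-KO cells. With 50% of the shorter peak covered, the kept share was 83.1% and 79.2%, the share outside 15.5% and 11.7%, and the joined share 1.06% and 0.667%, and the split share was 1.06% in Taf5l-KO cells. With peaks less than 1000 bp apart merged, the kept share was 85.6% and 82.0%, the split share 0.756% and 0.830%, and the joined share 0.639% and 0.301%. Merging gave a share outside of 13.9% in Taf5l-KO cells and a broad width ratio of 0.706 in Taf6l-KO cells. With lists of equal length, the kept share was 86.0% and 85.8%, the share outside 13.8% and 13.4%, and the joined share 1.11% and 0.693%, and in Taf5l-KO cells the split share was 0.803% and the broad width ratio 0.845. So the lower kept share in Taf6l-KO cells was nearly level with that in Taf5l-KO cells once the lists were of equal length. Without chromosome 11, chosen after seeing the data, the kept share was 84.7% and 80.9%, and the median width ratio 1.00 and 0.940. Classing broad matches by the geometric mean gave 0.936 and 0.855, and by the knockout width 0.986 and 0.940. From 6000 bp the number ratio was 0.426 and 0.261. Beyond the construction of each alternative the cause was not tested. The overlap rule gives no value for numbers of peaks, nor equal length for their ratio. No paired analysis was possible because each genotype is 1 library. The scaled depth limits what can be said of weak peaks and of the edges of domains.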
